A study of Mus musculus with 24 samples.

Results

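The genes that encode the proteins of the cytosolic ribosome were followed in brain and liver of mice that lacked single copies of the tRNA-Phe-GAA gene family. Members were taken by symbol, as protein-coding genes named Rpl or Rps followed by a digit together with Rplp0, Rplp1, Rplp2 and Rpsa, without the Rps6k kinases and without any symbol containing -ps. This rule found 90 of the 55469 rows of the expression tables. It also took in a few genes whose products are not core ribosomal proteins, namely Rps19bp1, a binding partner of Rps19, Rps23rg1, a retroposed gene derived from Rps23, and the retrocopies Rpl27rt, Rpl35rt and Rps27rt.

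RNA sequencing was performed on total RNA of male C57BL/6N mice. The 4 genotypes were wild type (WT) and animals homozygous for a CRISPR deletion of a tRNA-Phe gene, namely tRNA-Phe-1-1-/-, in which tRNA-Phe-1-1 is deleted, its counterpart tRNA-Phe-2-1-/- and likewise tRNA-Phe-3-1-/-, with 3 replicates (A, B and C) of each genotype in each tissue and 24 samples in all. The study describes mutant and WT mice as matched by age and as littermates, and also states that every experiment used mice of different litters. The mice received a normal chow diet. Each deletion was carried in the germline and not restricted to a tissue, and each genotype stood for 1 deleted gene in 1 mouse line.

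Ribosomal proteins assemble with ribosomal RNA into a small subunit, which reads the mRNA, and a large subunit, which joins the amino acids. Their mRNAs are among the most abundant of any cell and are made in near-balanced amounts. Most of them begin with a run of pyrimidines, the 5' terminal oligopyrimidine (TOP) tract, through which mTOR and the RNA-binding protein Larp1 control their translation. tRNA-Phe delivers phenylalanine to the ribosome at both phenylalanine codons.

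The TOP tract is shown at the annotated transcription start of 4 members, and the starts of Rps23rg1, its source gene Rps23 and Rpl11 are set beside them because they recur in the liver results. Each sequence is from RefSeq (GRCm38.p6), covers 15 bases before the start and 15 bases from the start on, and has in capitals the part of an unbroken run of at least 8 C or T letters that lies in this stretch and within 5 bases of the start.
Rps6 (chr4:86857353-86857382, minus strand): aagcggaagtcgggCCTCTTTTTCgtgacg
Rpl15 (chr14:18270972-18271001, minus strand): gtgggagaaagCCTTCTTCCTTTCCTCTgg
Rps18 (chr17:33955651-33955680, minus strand): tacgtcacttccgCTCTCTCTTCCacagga
Rpl28 (chr7:4792950-4792979, plus strand): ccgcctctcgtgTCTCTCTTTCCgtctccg
Rps23 (chr13:90923107-90923136, plus strand): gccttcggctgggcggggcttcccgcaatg
Rps23rg1 (chr8:3567983-3568012, plus strand): gctttgcagagagTCTTTCTCTCaccccag
Rpl11 (chr4:136053379-136053408, minus strand): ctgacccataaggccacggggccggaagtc

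RefSeq promoter windows of 300 bases were at hand for 67 of the 90 members, as 79 windows. A pyrimidine run of at least 8 lay within 5 bases of the start in 25 of them, or 31.6%, against 9.72% of all 32851 windows. The letters CCGGAAG, searched on both strands, were in 27 member windows, or 34.2%, against 8.86% of all windows. The sequence TATAAA stood in the 40 bases before the start in 1.27% of member windows and 2.31% of all windows. These are matches of letters at annotated starts, which can lie some bases away from the start used in these tissues. CTTCCGG, the reverse complement of CCGGAAG, can overlap a pyrimidine run.

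Libraries held between 30365760 and 46225360 reads in brain and between 32276896 and 51584522 in liver. Of these, 272068 to 471492 reads in brain and 354509 to 573966 in liver came from the members. Values below are normalised counts as deposited, scaled separately in each tissue, so levels were not tested between tissues. The summed level of 7 neuronal markers was 91724 to 166052 across brains and 55.5 to 459 across livers, and that of 6 hepatocyte markers was 2033750 or higher in every liver. Across brains the hepatocyte markers summed to 32.2 to 50450, and 5 choroid plexus markers to 154 to 3647. The deleted tRNA genes are not rows of these mRNA tables, so the deletions could not be checked here. In bulk tissue, fewer cells of a type and less RNA per cell cannot be told apart.

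The members made up about 1 in 100 normalised counts. In WT brain their share of the signal was 1.05%, 0.901% and 0.956% in replicates A, B and C, with a mean of 0.968% ± 0.0737 (SD, n = 3). The share was 0.948% ± 0.0872 in tRNA-Phe-1-1-/-, 0.963% ± 0.0564 in tRNA-Phe-2-1-/- and 1.06% ± 0.0743 in tRNA-Phe-3-1-/- brain (SD, n = 3 each). In liver it was 1.11% ± 0.0148 in WT, 1.09% ± 0.0674 in tRNA-Phe-1-1-/-, 1.11% ± 0.0261 in tRNA-Phe-2-1-/- and 1.12% ± 0.0740 in tRNA-Phe-3-1-/- (SD, n = 3 each). The ranges of each mutant and WT overlapped in both tissues. When the 10 most abundant genes and the mitochondrial entries were left out of the total, the share in WT rose to 1.21% in brain and 1.60% in liver.

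Per length, most ribosomal protein mRNAs stood at similar levels. Leaving out the listed paralogs, the retrocopies, Rps23rg1 and Rps19bp1, 77 members had a median of 8234 normalised counts per 1000 coding bases in WT brain and 10675 in WT liver, and 72 of the 77 lay within 2-fold of that median in each tissue. All tested protein-coding genes had a median of 473 in brain and 352 in liver on the same scale. Rpl41, which encodes a peptide of 25 residues, was the highest in both tissues, at 75901 ± 2790 per 1000 coding bases in brain and 93853 ± 2267 in liver (SD, n = 3). Rps29 and Rplp1 followed, with 29866 ± 965 and 22071 ± 403 in brain and with 24527 ± 1634 and 27559 ± 1425 in liver. Lengths are those of the coding part alone, which raises the level of the shortest coding sequences. Rps16 was the lowest of these 77, at 3029 ± 167 in brain and 4245 ± 346 in liver.

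**Figure D1:**
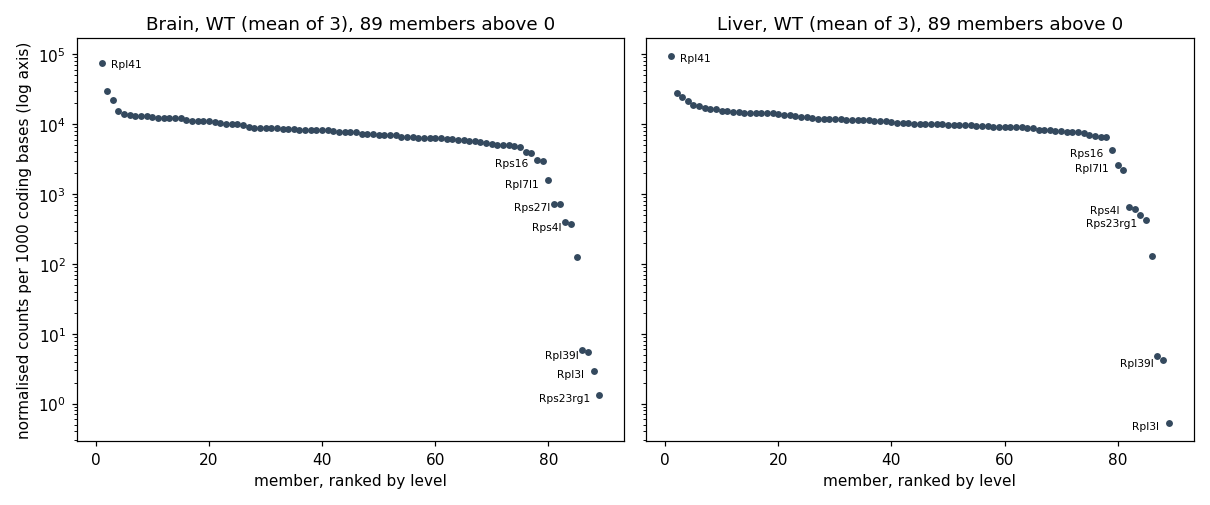
Level of each member in WT, as the mean of 3 samples in normalised counts per 1000 coding bases on a log axis, ranked from the highest to the lowest, in brain (left) and liver (right). Most members form a plateau around 8234 in brain and 10675 in liver, Rpl41 stands above it and a few paralogs and retrocopies fall below; Rpl10l, at 0, is not drawn.

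The paralogs known from other tissues were nearly silent. Rpl10l, the autosomal copy of Rpl10 used in male germ cells, had 0 reads in all 24 libraries, which allows up to 3 reads of 30365760 in the shallowest brain library and 3 of 32276896 in the shallowest liver library (counting error only). Rpl3l, the striated muscle form of Rpl3, had 0 to 8 reads in the brains and 0 to 3 in the livers. Rpl39l, another germ cell paralog, had at most 3 reads, and the retrocopy Rpl27rt at most 5. These 4 genes fell under a mean of 10 normalised counts in both tissues and were not tested, and Rps23rg1, with 0 to 5 reads a library, was not tested in brain. Thus 85 members were tested in brain and 86 in liver.

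Other paralogs were expressed beside their parent genes. Per coding base, Rps27l, a p53-inducible copy of Rps27, stood at 5.21% ± 0.987 of Rps27 in WT brain and at 67.2% ± 3.99 in WT liver (SD, n = 3). Rpl36al stood at 68.5% ± 2.93 of Rpl36a in brain and 157% ± 18.5 in liver. Rpl22l1 stood at 51.8% ± 7.73 of Rpl22 in brain and 34.6% ± 8.94 in liver, and Rpl7l1 at 21.8% ± 0.541 and 20.9% ± 1.17 of Rpl7. Rps4l stood at 5.98% ± 1.55 of Rps4x in brain and 6.50% ± 1.22 in liver. As a share of the summed counts of all members, which does not depend on the scaling of a table, Rps27l was 10.8 times higher in WT liver than in WT brain and Rpl36al 2.42 times, while 67 of 84 members differed by less than 1.5-fold between the tissues. Rplp0 followed at 2.01 times, and none of the 84 was over 2 times higher in brain. Rps23rg1, which is not among these 84, had 179 ± 58.4 normalised counts in WT liver (SD, n = 3), with 8 to 236 reads a liver library against 0 to 5 a brain library.

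In brain, no ribosomal protein gene passed the test against WT in any of the 3 mutants. Each comparison was made with limma on log2(normalised count + 1) across all 19228 genes tested, with an adjusted p under 0.05 as the threshold. For tRNA-Phe-1-1-/-, 0 of 85 members passed against 1.05% of all genes, for tRNA-Phe-2-1-/- 0 of 85 against 0% of all genes, and for tRNA-Phe-3-1-/- 0 of 85 against 0% of all genes. At an unadjusted p under 0.05, these counts were 2, 0 and 4 members, against 15.9%, 5.57% and 12.3% of all genes. The edgeR quasi-likelihood test and DESeq2 on the reads recovered from the normalised counts also called 0 members in each of these comparisons. The median standard error of a member's log2 fold change was 0.09.

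The members shifted by small amounts and mostly together. Their median log2 fold change was -0.05 in tRNA-Phe-1-1-/- brain, with 66 of 85 members lower than in WT, and -0.04 in tRNA-Phe-2-1-/- brain, with 71 of 85 lower. In tRNA-Phe-3-1-/- brain the median was 0.08 and 77 of 85 members were higher. The medians over all genes were within 0.002 of 0 in each. The 3 comparisons used the same WT samples. Groups did not overlap for 15 members that were higher in tRNA-Phe-3-1-/- brain, against 7.93% of all genes, and for 1 that was lower, against 8.48%. In tRNA-Phe-1-1-/- brain these counts were 1 member higher, against 12.8% of all genes, and 4 lower, against 12.4%, and in tRNA-Phe-2-1-/- brain 0 higher, against 6.02%, and 3 lower, against 5.43%.

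The same was seen in each sample as the median log2 deviation of 84 members from their means over the 12 brains. WT replicates A, B and C stood at 0.08, -0.06 and -0.01. The tRNA-Phe-1-1-/- replicates stood at -0.14, -0.09 and 0.09, and the tRNA-Phe-2-1-/- replicates at -0.03, -0.12 and 0.04. The tRNA-Phe-3-1-/- replicates stood at 0.07, 0.04 and 0.17. Every mutant group overlapped WT. The group means were 0.00 ± 0.07 in WT, -0.05 ± 0.12 in tRNA-Phe-1-1-/-, -0.04 ± 0.08 in tRNA-Phe-2-1-/- and 0.09 ± 0.07 in tRNA-Phe-3-1-/- (SD, n = 3 each), and the latter 2 groups, both at 0.04 at their nearest samples, did not quite overlap. The members moved as a block across brains: the correlation of a member with the median of the others over the 12 samples, which share their scaling, had a median of 0.86, and 73 of 84 were above 0.5. Rps19bp1, Rps16, Rpl29, Rpl7l1 and Rpl35rt were the 5 with a value below 0, chosen after the values were seen.

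**Figure D2:**
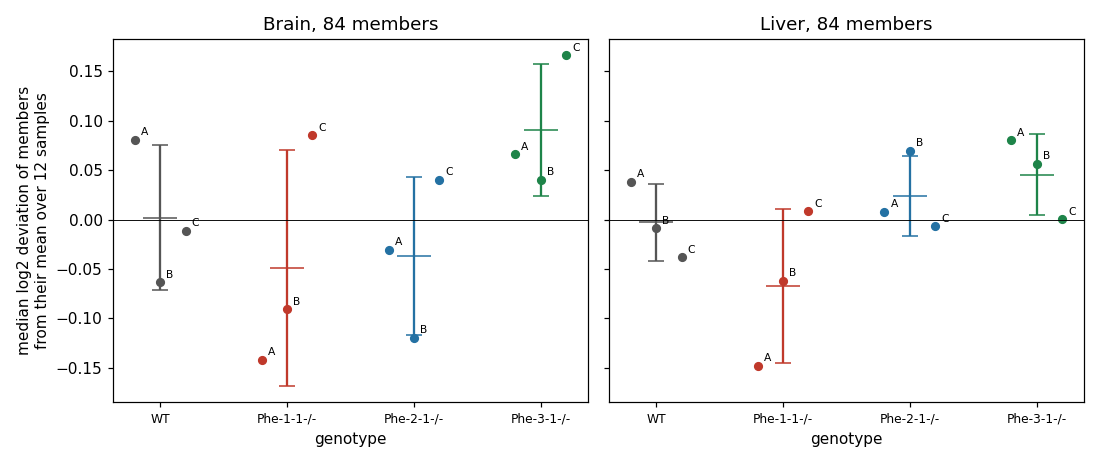
Median log2 deviation of 84 members from their mean over the 12 samples of a tissue, for each sample (points, lettered by replicate) with the mean and SD of each genotype (n = 3), in brain (left) and liver (right). The brains of tRNA-Phe-3-1-/- lie between 0.04 and 0.17 and overlap the WT range of -0.06 to 0.08.

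Markers of other cells moved with the genotypes in brain, though 0 of the 5 oligodendrocyte and 0 of the 5 erythroid markers passed the test. The summed level of the oligodendrocyte markers was 36656 to 67629 in tRNA-Phe-1-1-/-, 52930 to 123451 in tRNA-Phe-2-1-/- and 64150 to 138527 in tRNA-Phe-3-1-/-, against 95001 to 112111 in WT. The erythroid markers summed to 7588 to 9630, 6610 to 15616 and 16632 to 37016 in the same order, against 15395 to 28255 in WT. Of 5 endothelial markers 1, Cldn5, passed as lower in tRNA-Phe-1-1-/-, where 1.05% of all genes passed. The endothelial sum was 2511 to 2552 against 2953 to 3303 in WT. The neuronal markers had a median log2 fold change of -0.37 in tRNA-Phe-3-1-/-, with sums of 91724 to 147954 against 135210 to 166052 in WT. Replicate C of tRNA-Phe-3-1-/-, the brain with the highest member median, had median deviations of -0.62 for the neuronal, 0.40 for the astrocyte and 1.38 for the erythroid markers. Without it the median log2 fold change of the members in tRNA-Phe-3-1-/- brain was 0.05. Their part in the member results was not tested.

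The members with the lowest adjusted p in tRNA-Phe-1-1-/- brain were Rps21, Rpl39, Rpl28 and Rpl12. Rpl39, a small protein at the exit tunnel of the large subunit, had 1612, 1535 and 1560 normalised counts in WT and 1282, 1285 and 1409 in tRNA-Phe-1-1-/-. The groups did not overlap, and the log2 fold change was -0.24 ± 0.09 (SE, limma adjusted p = 0.2006). Rps21 gave -0.23 ± 0.08 (SE, limma adjusted p = 0.1974). Rps19bp1, Rps29 and Rpl35rt had the largest positive values among members with a mean of at least 100, at 0.18, 0.16 and 0.14. Rps29 had 4746, 7417 and 5236 normalised counts against 5297, 5017 and 5007 in WT, so that replicate B alone was above WT.

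In tRNA-Phe-2-1-/- brain the lowest adjusted p-values belonged to Rpl28, Rps15, Rps16 and Rpl38, and the lowest was 0.9083 (limma). Rps16 had the largest difference, -0.38 ± 0.21 (SE), and its 3 values were 1070, 1453 and 694 against 1263, 1411 and 1333 in WT, so that replicate C stood apart. In tRNA-Phe-3-1-/- brain the 4 members were Rps24, Rps28, Rps23 and Rps4l, all small-subunit genes. Rps24 had 5361, 5770 and 5781 normalised counts against 5218, 4758 and 5027 in WT, with a log2 fold change of 0.17 ± 0.07 (SE, limma adjusted p = 0.3472). Rps4l had 614, 281 and 580 against 387, 193 and 305 in WT, and these groups overlapped.

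Between mutant brains, the members stood lower in both other mutants than in tRNA-Phe-3-1-/-. The median log2 fold change was -0.14 for tRNA-Phe-1-1-/-, with 77 of 85 members lower, and -0.12 for tRNA-Phe-2-1-/-, with 81 of 85 lower. Groups did not overlap for 16 members that were lower in tRNA-Phe-1-1-/-, against 11.1% of all genes, and 3 that were higher, against 12.4%. For tRNA-Phe-2-1-/- 27 members were lower without overlap, against 5.79% of all genes, and 0 were higher, against 6.94%. These comparisons share the tRNA-Phe-3-1-/- brains, which replicate C leads in the sample medians. Of 85 members 1 passed the test. Rpl39 (chrX:37082518-37085222) was lower in tRNA-Phe-1-1-/- than in tRNA-Phe-3-1-/- brain, where it had 1710, 1656 and 1824 normalised counts, by a log2 fold change of -0.38 ± 0.09 (SE, limma adjusted p = 0.0485). In this comparison 2.11% of all genes passed and 0.697% passed as lower. At an unadjusted p under 0.05 it had 21 of 85 members, or 24.7%, against 19.5% of all genes. The call of Rpl39 was lost without any 1 of the 6 samples, with no filter on low values, without the variance trend and with only the 6 samples in the fit. Setting tRNA-Phe-1-1-/- brain beside tRNA-Phe-2-1-/-, 0 members passed against 0.53% of all genes. With tRNA-Phe-2-1-/- set beside tRNA-Phe-3-1-/- brain, 0 members passed against 0% of all genes. At an unadjusted p under 0.05 these comparisons had 2 and 9 members, against 13.7% and 9.93% of all genes. Both edgeR and DESeq2 on the recovered reads also called 0 in each. In the former comparison groups did not overlap for 1 member that was higher in tRNA-Phe-1-1-/-, against 11.2% of all genes, and for 0 that were lower, against 9.66%. The F-test among the 4 genotypes called 0 of 85 members, against 0.634% of all genes, and edgeR also called 0. At an unadjusted p under 0.05 the limma F-test had 4 members, against 17.6% of all genes. Its lowest adjusted p-values were those of Rpl39, Rps24, Rpl28 and Rps21.

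In liver, 3 members fell in tRNA-Phe-1-1-/- and 0 rose in the limma test. Of 86 members tested, Rps23rg1, Rpl3 and Rpl11 passed, or 3 against 17.3% of all 15856 genes, with 9.08% of all genes passing as lower and 8.27% as higher. DESeq2 on the recovered reads called 7 members, 6 as lower and 1, Rpl7l1, as higher, and edgeR called 2, both lower. In tRNA-Phe-2-1-/- liver 0 members passed against 0.132% of all genes, and in tRNA-Phe-3-1-/- liver 0 against 0.883%. At an unadjusted p under 0.05 the counts were 12, 6 and 3 members, against 31.8%, 14.9% and 16.1% of all genes. In the latter 2 comparisons edgeR and DESeq2 called 0 members.

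**Figure D3:**
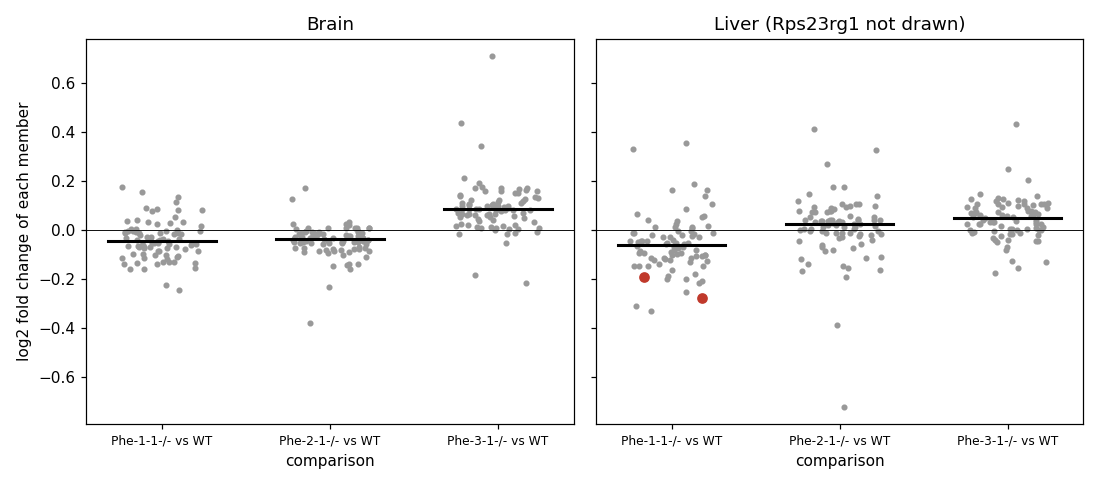
Log2 fold change of each member (points) against WT in brain (left, 85 members) and liver (right, 85 members, without Rps23rg1), for the 3 mutants, with red points at an adjusted p under 0.05 and bars at the median of the points drawn. In each comparison at least 79 members lie within 0.25 of 0, and the 2 red points are Rpl3 and Rpl11 in tRNA-Phe-1-1-/- liver.

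Rps23rg1 (chr8:3567998-3584776, RefSeq, GRCm38.p6) showed the largest change among the members. It had 231, 116 and 191 normalised counts in WT liver, 15.1, 7.05 and 23.5 in tRNA-Phe-1-1-/-, 80.9, 138 and 63.6 in tRNA-Phe-2-1-/-, and 101, 51.8 and 124 in tRNA-Phe-3-1-/-. The tRNA-Phe-1-1-/- livers were below every other liver, whereas the other mutants overlapped WT. The log2 fold change against WT was -3.56 ± 0.46 (SE, limma adjusted p = 0.000628), or 11.8-fold lower, and the gene also passed against tRNA-Phe-2-1-/- (-2.62 ± 0.46, limma adjusted p = 0.00385) and tRNA-Phe-3-1-/- (-2.57 ± 0.46, limma adjusted p = 0.00436). It was below the threshold under all 18 alternative settings in each of these 3 comparisons. Its source gene Rps23 did not pass, at -0.01 ± 0.09 (SE, limma adjusted p = 0.9463). The product of Rps23rg1 is not a subunit of the ribosome. Reads of a retroposed gene and its source can be alike, and how the quantification divided them was not tested, which holds for the other retrocopies and close paralogs too.

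Rpl3 (chr15:80077781-80083406), a large-subunit protein close to the site of peptide bond formation, had 9608, 9835 and 10185 normalised counts in WT liver and 7480, 8437 and 8564 in tRNA-Phe-1-1-/-. The groups did not overlap, with a log2 fold change of -0.28 ± 0.08 (SE, limma adjusted p = 0.0330). In tRNA-Phe-2-1-/- liver it had 8095, 9041 and 8787, a difference of -0.19 ± 0.08 that did not pass (SE, limma adjusted p = 0.2926). Rpl11 (chr4:136049354-136053393), which carries the 5S ribosomal RNA into the large subunit with Rpl5, had 5647, 5395 and 5326 in WT and 4670, 4877 and 4771 in tRNA-Phe-1-1-/-, a log2 fold change of -0.19 ± 0.06 (SE, limma adjusted p = 0.0456). Every tRNA-Phe-1-1-/- liver was below every other liver for Rpl11. With the replicate letter as a block, the adjusted p of Rpl3 was 0.0551 and that of Rpl11 0.0801, and 1 member, Rps23rg1, remained past the threshold. The call of Rpl3 was also lost without WT replicate A, B or C or tRNA-Phe-1-1-/- replicate A, and that of Rpl11 without any 1 of the 6 samples.

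**Figure D4:**
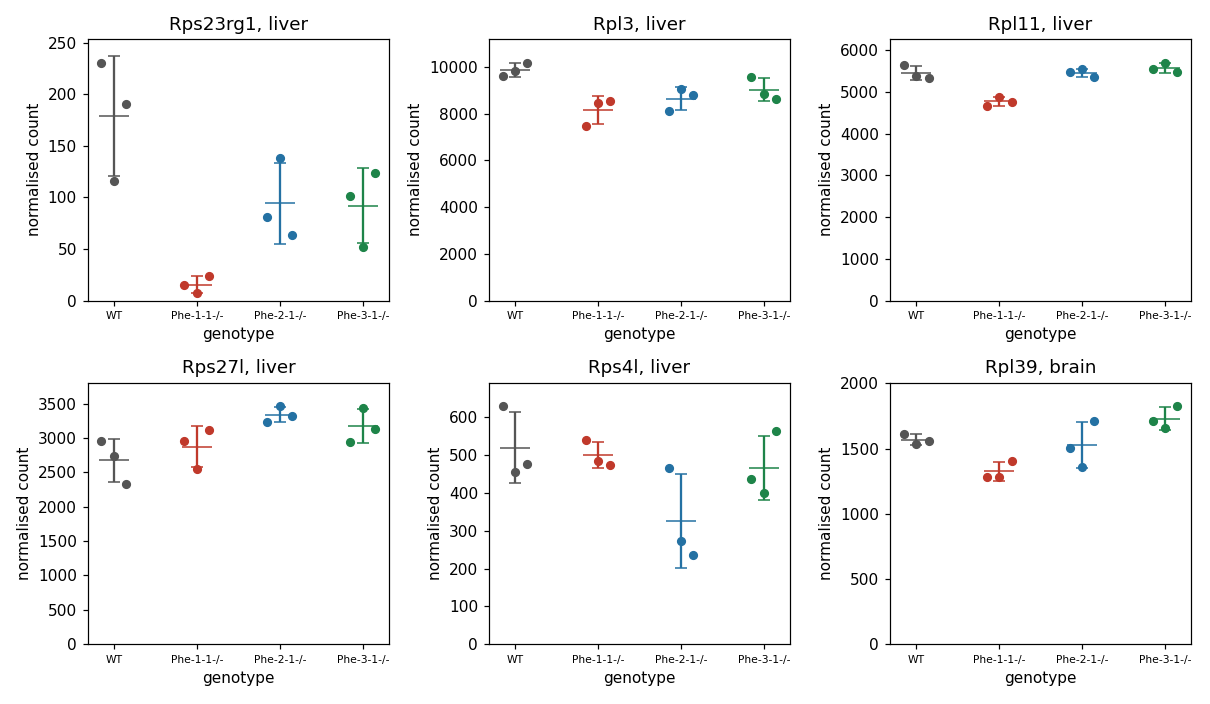
Normalised counts of 6 members by sample (points) with the mean and SD of each genotype (n = 3), in liver for Rps23rg1, Rpl3, Rpl11, Rps27l and Rps4l and in brain for Rpl39. Each axis starts at 0; the 3 tRNA-Phe-1-1-/- livers are the lowest for Rps23rg1 (7.05 to 23.5) and Rpl11 (4670 to 4877).

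Rpl36a was next in tRNA-Phe-1-1-/- liver, at -0.22 ± 0.07 (SE, limma adjusted p = 0.0532). Among members with a mean of at least 100, Rpl22l1 and Rpl35rt had the lowest values, at -0.33 and -0.31, with standard errors of 0.17 and 0.28, and Rpl7l1, Rps29 and Rps19bp1 had the highest, at 0.33, 0.19 and 0.16; none of these 5 passed in limma, whereas DESeq2 called Rpl7l1 as higher. Rps29 had 3863, 6383 and 4386 normalised counts in tRNA-Phe-1-1-/- against 4393, 4315 and 3875 in WT, so that its value rested on replicate B. The median over the members was -0.06, with 67 of 86 lower than WT, against a median of -0.01 over all genes. The groups did not overlap for 19 members that were lower, against 17.6% of all genes, and for 1 that was higher, against 17.2%. Of the members with Rpl symbols 44 of 50 were lower, with a median of -0.10, and of those with Rps symbols 23 of 36, with a median of -0.02. The ratio of summed small-subunit to large-subunit counts was 0.656 ± 0.0119 in tRNA-Phe-1-1-/- liver against 0.630 ± 0.00573 in WT (SD, n = 3), and the groups did not overlap. It was 0.638 ± 0.00613 in tRNA-Phe-2-1-/- and 0.642 ± 0.0102 in tRNA-Phe-3-1-/- liver, and the latter range, 0.630 to 0.650, overlapped both WT and tRNA-Phe-1-1-/-. In brain this ratio was 0.614 ± 0.0119 and 0.612 ± 0.00634, and the groups overlapped. These ratios are given as values without a test.

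In tRNA-Phe-2-1-/- liver the members had a median of 0.02, with 53 of 86 higher than WT. The groups did not overlap for 9 members that were higher, against 13.1% of all genes, and 8 that were lower, against 12.2%. The lowest adjusted p-values were those of Rps4l, Rps27l, Rpl7l1 and Rpl3. Rps4l had 466, 273 and 237 normalised counts against 628, 455 and 476 in WT, and Rps27l had 3237, 3458 and 3320 against 2953, 2738 and 2336. Rps4l overlapped WT and Rps27l did not, and their adjusted p-values were 0.1994 and 0.2018 (limma). In tRNA-Phe-3-1-/- liver the median was 0.05, with 63 of 86 members higher, and groups did not overlap for 12 members that were higher, against 9.85% of all genes, and 3 that were lower, against 10.1%. Rps27, Rpl28, Rps27l and Rps23rg1 had the lowest adjusted p-values, from 0.2501 to 0.3251 (limma).

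By sample, the median deviation of 84 members was 0.04, -0.01 and -0.04 in the WT livers, -0.15, -0.06 and 0.01 in tRNA-Phe-1-1-/-, 0.01, 0.07 and -0.01 in tRNA-Phe-2-1-/-, and 0.08, 0.06 and 0.00 in tRNA-Phe-3-1-/-. Replicate A of tRNA-Phe-1-1-/- was the lowest liver, and the mutant groups overlapped WT. The members moved together less closely than in brain, with a median correlation to the others of 0.72 and 63 of 84 above 0.5.

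Between mutant livers, Rps23rg1, Rpl36 and Rpl11 were lower in tRNA-Phe-1-1-/- than in tRNA-Phe-2-1-/-, or 3 members against 15.9% of all genes, with 8.53% of all genes passing as lower. The same 3 were lower than in tRNA-Phe-3-1-/-, against 16.1% of all genes and 8.63% passing as lower. Rpl36 (chr17:56610094-56614246), a large-subunit protein, had 2108, 2316 and 2802 normalised counts in tRNA-Phe-1-1-/-, against 2887, 3101 and 3038 in tRNA-Phe-2-1-/- and 3058, 3207 and 2744 in tRNA-Phe-3-1-/-. Its log2 fold changes were -0.33 ± 0.10 (SE, limma adjusted p = 0.0458) and -0.33 ± 0.10 (SE, limma adjusted p = 0.0481), and the second pair of groups overlapped. With the replicate block, Rps23rg1 alone, 1 member, passed in both. The median over the members was -0.08 against tRNA-Phe-2-1-/-, with 70 of 86 lower, and -0.12 against tRNA-Phe-3-1-/-, with 76 of 86 lower. Groups did not overlap for 19 and 30 of these lower members, against 19.6% and 16.3% of all genes, and for 2 and 1 that were higher, against 18.4% and 15.5%. At an unadjusted p under 0.05 these 2 comparisons had 16 and 17 members, against 31.1% and 31.3% of all genes. In tRNA-Phe-2-1-/- liver set beside tRNA-Phe-3-1-/- 0 members passed against 0% of all genes, and edgeR and DESeq2 called 0. At an unadjusted p under 0.05 there was 1 member, against 6.68% of all genes. Here groups did not overlap for 1 member that was higher in tRNA-Phe-2-1-/-, against 5.95% of all genes, and for 2 that were lower, against 6.26%. The F-test called 1 member, Rps23rg1 (limma adjusted p = 0.00214), against 17% of all genes, followed by Rpl11, Rpl36 and Rpl36a.

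Some members with further roles were followed in tRNA-Phe-1-1-/- liver. Rps6, the substrate of the S6 kinases, gave 0.01 ± 0.07 in tRNA-Phe-1-1-/- against WT, and Rps27a, made as a fusion with ubiquitin, gave -0.07 ± 0.08 (log2 fold change ± SE). The stalk proteins, which recruit the elongation factors, gave 0.02 ± 0.08 for Rplp0, -0.20 ± 0.08 for Rplp1 and -0.06 ± 0.10 for Rplp2. None of these 5 passed in any comparison.

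Phenylalanine content was described as a property of the members, from coding sequences of a later GENCODE release. The median member had 3.15% phenylalanine, against 3.75% over 21359 protein-coding genes, and 61.5% of the phenylalanine codons of the members were TTC, against 54.7%. Rpl30 and Rpl41 have none, and Rps23rg1 and Rps15a had the highest share, at 6.38% and 6.15%. In tRNA-Phe-1-1-/- liver the members at or above the median share, without Rps23rg1, had a median log2 fold change of -0.04 (n = 43) and the others of -0.08 (n = 42). In tRNA-Phe-1-1-/- brain both medians were -0.05, and in tRNA-Phe-3-1-/- brain both were 0.08.

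Genes of ribosome assembly and rRNA synthesis were counted beside the members. In tRNA-Phe-1-1-/- liver, 9 of 28 ribosome biogenesis genes rose and 0 fell, where 8.27% of all genes passed as higher and 9.08% as lower, with a median log2 fold change of 0.27. Rrp9, a protein of the U3 small nucleolar particle, had 252, 238 and 230 normalised counts in WT and 384, 428 and 378 in tRNA-Phe-1-1-/-, a log2 fold change of 0.72 ± 0.15 (SE, limma adjusted p = 0.00687). Nop2 and Bysl rose by 0.70 ± 0.17 and 0.61 ± 0.16. Of 14 RNA polymerase I genes 2 rose, a count not far from that share of all genes. They were Polr1c, which is also a subunit of RNA polymerase III, by 0.44 ± 0.09, and Polr1a, the largest subunit, by 0.45 ± 0.11. All 3 tRNA-Phe-1-1-/- livers were above all WT livers for each of these 5 genes. They were named for the lowest p-values of their lists, so this adds nothing to the test. Of all genes 17.2% were higher without overlap. In tRNA-Phe-3-1-/- liver Mybbp1a, a nucleolar protein that also binds transcription factors, fell (-0.56 ± 0.11, limma adjusted p = 0.0391), and no other gene of both lists passed in the 2 remaining liver comparisons with WT. Mybbp1a had 1341, 1408 and 1097 normalised counts there, against 1824, 1772 and 2066 in WT. The tRNA-Phe-2-1-/- livers, at 1278, 1432 and 1288, were also all below WT, though the gene did not pass. These comparisons share the WT livers. In brain, 0 of these 28 and 14 genes passed in any mutant. In tRNA-Phe-1-1-/- brain 4 and 4 were at an unadjusted p under 0.05, against 15.9% of all genes. The difference between tissues was not tested.

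The other TOP mRNAs, 23 genes that include elongation factors, initiation factors and snoRNA hosts, had a median of 0.06 in tRNA-Phe-1-1-/- liver. There 1 rose, Snhg1 (0.66 ± 0.19), and 1 fell, Hnrnpa1 (-0.38 ± 0.12). Of all genes 8.27% passed as higher and 9.08% as lower. In the other comparisons with WT 0 of 23 passed. Snhg1 was also above WT (197, 252 and 210) in every tRNA-Phe-3-1-/- liver (326, 371 and 326), and overlapped WT in tRNA-Phe-2-1-/-. Hnrnpa1 was below WT (1048, 1033 and 1202) in every tRNA-Phe-2-1-/- (750, 867 and 894) and tRNA-Phe-3-1-/- liver (963, 766 and 818). Larp1 and Eif4ebp2 belong to a separate list of 11 genes for TOP translation and mTOR. With tRNA-Phe-1-1 deleted, 1 of the 11 passed as lower in liver, where 9.08% of all genes did. The median over the list was -0.02 there. In tRNA-Phe-3-1-/- liver 2 of the 11 passed, both lower, against 0.883% of all genes in either direction. For tRNA-Phe-2-1-/- liver it was 1, also lower, against 0.132%. Larp1, which binds TOP tracts, fell in tRNA-Phe-1-1-/- liver (-0.56 ± 0.14, limma adjusted p = 0.0192) and tRNA-Phe-3-1-/- liver (-0.75 ± 0.14, limma adjusted p = 0.0380). Its values were 6272, 7051 and 7251 in WT, 4340, 5667 and 4045 in tRNA-Phe-1-1-/- and 4874, 3948 and 3490 in tRNA-Phe-3-1-/-. The tRNA-Phe-2-1-/- livers, at 5298, 4673 and 4903, were also all below WT, with a difference of -0.47 ± 0.14 that did not pass (limma adjusted p = 0.1848). Eif4ebp2, an inhibitor of the cap-binding protein, fell in tRNA-Phe-2-1-/- liver (-0.84 ± 0.10, limma adjusted p = 0.0139) and tRNA-Phe-3-1-/- liver (-0.80 ± 0.10, limma adjusted p = 0.0101), from 5317, 5908 and 6224 in WT to 3183, 3248 and 3273 and to 3881, 2992 and 3186. These comparisons share the WT livers.

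Of 10 genes, namely Trp53, which encodes p53, and p53 targets, 4 rose and 1 fell in tRNA-Phe-1-1-/- liver. There 17.3% of all genes passed in either direction. Ccng1 was at 0.49 ± 0.11, Zmat3 at 0.65 ± 0.15 and Bbc3 at -1.17 ± 0.27. Trp53, Mdm2, Cdkn1a, Bax and Eda2r did not pass, at 0.06, 0.02, -0.66, 0.08 and 1.14. The p53-inducible member Rps27l did not pass either, at 0.11 ± 0.10. Of 78 mitochondrial ribosomal protein genes 3 rose and 4 fell, which is below that share, with a median of 0.00, and of 1609 other genes for proteins under 200 residues 156 rose and 137 fell, with a median of 0.01. In the livers of the other mutants 0 of the 10 genes of the p53 list passed. Ccng1, at 1120, 1184 and 1113 in WT, was above all of these in tRNA-Phe-2-1-/- (1423, 1559 and 1376) and tRNA-Phe-3-1-/- (1368, 1429 and 1686). Bbc3 was also below every WT liver in tRNA-Phe-3-1-/-. It overlapped WT in tRNA-Phe-2-1-/-, as Zmat3 did in both. These comparisons share the WT livers.

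**Figure D5:**
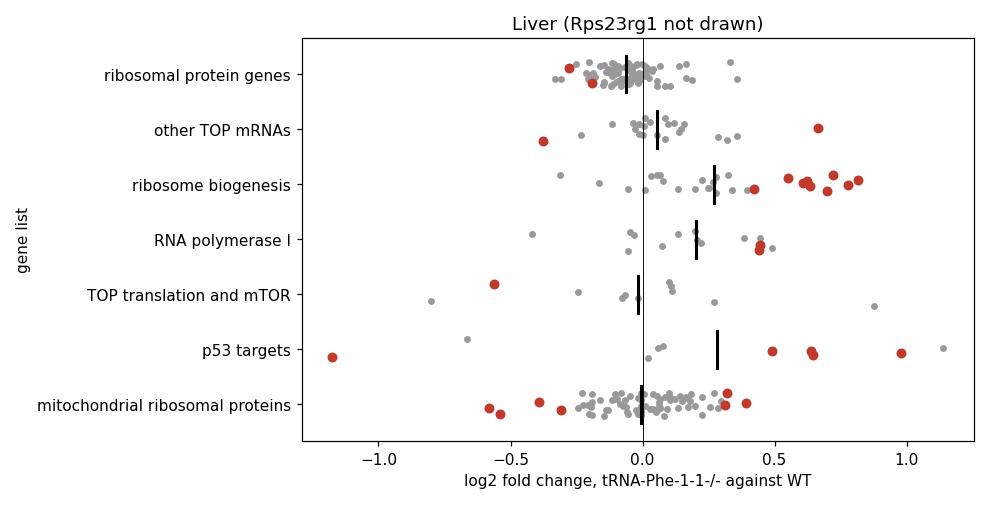
Log2 fold change of each gene (points) in tRNA-Phe-1-1-/- against WT liver, by gene list, with red points at an adjusted p under 0.05 and bars at the median of the points drawn (Rps23rg1 left out). The ribosomal protein genes have 2 red points, both below 0, and the ribosome biogenesis genes have 9, all above 0.

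Markers of some other cells moved in the same livers, where 8.27% of all genes passed as higher and 9.08% as lower. The summed level of 5 erythroid markers was 11566 to 13840 in tRNA-Phe-1-1-/- against 19732 to 26031 in WT, and 4 of the 5 fell. Of 5 endothelial markers 1 rose and 2 fell. Of 5 Kupffer cell markers 0 passed, of 5 stellate cell markers 1 rose, and of 5 lymphocyte markers 1 fell. The hepatocyte list summed to 2033750 to 2585050 against 2617130 to 3275250, with 0 of 6 past the threshold. Mitochondrial entries took 4.09%, 4.14% and 4.17% of the signal in tRNA-Phe-1-1-/- livers, against 4.61%, 5.43% and 5.76% in WT. The livers of the other mutants lay between 4.32% and 5.11%. The part of these markers and entries in the member results was not tested.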

How the data were processed

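Total RNA was sequenced by the authors from brain or liver of 24 samples, in 8 groups of 3. The authors' reads were trimmed with Trim Galore and cutadapt, aligned with STAR to GRCm38.p6, quantified with Salmon in a strand-aware mode, and normalised per tissue with DESeq2. The deposited values are normalised counts, a signal per gene; the deposited fold changes and p-values of the authors' comparisons were not used. Dividing by the smallest value above 0 gave whole reads for 100% of values in every library (tolerance 0.001). Symbols came from a later GENCODE release, which named 51679 of 55434 gene IDs.

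Genes with a mean of at least 10 over the 12 samples of a tissue were tested with limma 3.58.1 (R 4.3.3), with a variance trend, on log2(normalised count + 1), and p-values were adjusted over all genes tested. A fold change on this scale understates the change of low genes. edgeR 4.0.16 and DESeq2 1.42.0 on the recovered reads were added after seeing the data. The scripts were tested on simulated data. edgeR called 2703 genes in tRNA-Phe-1-1-/- against WT liver and 187 in brain, and DESeq2 3474 and 874. Rows of -ps pseudogenes held at most 5.98% of a member's level. Of 24 replicate pairs none was within sampling noise (chi-square per degree of freedom 14.1 to 158). The labels give no litter, so p-values measure the spread between these samples.

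Named genes were the 4 members with the lowest adjusted p per comparison with WT and per F-test, the 3 largest and smallest changes in tRNA-Phe-1-1-/-, the paralogs with their parents, the stalk genes, Rps6, Rps27a, members under the filter, and the extremes of level and of phenylalanine share. The members and lists were chosen with earlier results of these data known. A few results are not reported here.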

Additional observations from a re-analysis of the deposited data

How the results depend on the processing

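The change of Rps23rg1 in tRNA-Phe-1-1-/- liver kept its direction and its side of the threshold under all 18 alternatives, with log2 fold changes from -3.93 to -3.12 and adjusted p-values from 4.257e-12 to 0.00645. The other calls rested on the processing. In tRNA-Phe-1-1-/- liver the 3 members past the threshold against WT became 1 with no filter on low values, without the variance trend, with only the 6 samples and with the replicate block, and 7 with DESeq2. Against tRNA-Phe-2-1-/- the 3 became 1 under these 4 settings, with quantile normalisation and with edgeR, and 7 with DESeq2. Against tRNA-Phe-3-1-/- the 3 became 1 under the same 4 settings and with quantile normalisation, 6 with a mean of at least 50, and 10 with DESeq2. The liver F-test gave 2 members with a mean of at least 50. The 1 member called in tRNA-Phe-1-1-/- brain relative to tRNA-Phe-3-1-/- became 0 with no filter, without the trend and with only the 6 samples, and 3 with DESeq2. The cause was not tested.

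Leaving out each sample in turn gave 1 to 5 members for tRNA-Phe-1-1-/- against WT liver (1 without WT replicate B or C or tRNA-Phe-1-1-/- replicate A, 5 without tRNA-Phe-1-1-/- replicate C), 1 to 5 against tRNA-Phe-2-1-/- (1 without tRNA-Phe-1-1-/- replicate A or B or tRNA-Phe-2-1-/- replicate B or C, 5 without tRNA-Phe-1-1-/- replicate C), 1 to 6 against tRNA-Phe-3-1-/- (1 without tRNA-Phe-1-1-/- replicate A or tRNA-Phe-3-1-/- replicate A or B, 6 without tRNA-Phe-1-1-/- replicate C), 1 to 3 for the liver F-test (3 without tRNA-Phe-1-1-/- replicate C, 2 without tRNA-Phe-2-1-/- replicate A), and 0 in every case in tRNA-Phe-1-1-/- brain relative to tRNA-Phe-3-1-/-. All other counts stayed at 0. The median over the members changed sign in tRNA-Phe-2-1-/- only, in 2 of 18 settings in brain (-0.08 to 0.00) and 3 of 18 in liver (-0.01 to 0.05). Without the 10 most abundant genes and the mitochondrial entries in the total, the WT share was 1.21% in brain and 1.60% in liver.

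Replicate letters are shared by all groups, but same-letter deviations correlated above 0.1 in 7 of 18 pairs of groups and letters in brain and 3 of 18 in liver, so the letters were not taken to pair the samples across groups. For tRNA-Phe-1-1-/- against WT liver these correlations were 0.228, 0.236 and -0.0906 in A, B and C. There the block removed the calls of Rpl3 and Rpl11. In 1 comparison, tRNA-Phe-2-1-/- set beside tRNA-Phe-3-1-/- brain, all 3 same-letter correlations were above 0.1 (0.132 to 0.492), and the count there was 0 with and without the block; apart from the 3 liver counts above, the replicate block moved no count of members.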

Other observations

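Genes whose pattern over the 12 samples of a tissue was close to that of 2 members are given by Pearson's r on the log2 scale, with no test, since the samples share their scaling. For Rps6 they included Eif3m (0.94) and Fundc1 (0.93) in brain and Eef1a1 (0.96), Cep250 (0.90) and Rwdd2b (0.87) in liver. For Rpl3 they were Pla2g12a (0.95), Chmp2a (0.93) and Bckdha (0.92) in brain and Chrna4 (0.95), Serpinc1 (0.94) and Btg1 (0.94) in liver.

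The mitochondrial ribosomal protein genes are translated in the cytosol and build the separate ribosome of mitochondria. Their median log2 fold change was 0.14 in tRNA-Phe-2-1-/- liver, with 68 of 78 above WT and 0 past the threshold. In tRNA-Phe-3-1-/- liver it was 0.10, with 60 of 78 above WT and 1 past the threshold. Of all genes 50.2% and 51.3% were above WT, and 0.132% and 0.883% passed. Other genes for short proteins had medians of 0.09 in both, with 64.45% and 65.94% above WT. These comparisons share the WT livers.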
